A study of Rattus norvegicus with 30 samples.

Results

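*Arc*, *Npas4*, *Nptx2*, *Ptgs2*, *Dusp1*, *Dusp5*, *Dusp6*, *Gadd45b* and *Ier2* are genes that neurons switch on, or on further, when they fire. They were taken by symbol from the probe annotation, which gave 9 probes, 1 for each of the 9 genes, among 22523 probes and 13337 annotated symbols. All 9 passed the filter on low values, which kept 11344 probes. The values are those of the hippocampus of adult Sprague Dawley rats, 1 rat per array, on 29 Illumina expression arrays. The exposed rats had met predator scent and had been sorted by behaviour into extreme responders (5 females, 5 males) and minimal responders (5 females, 4 males with values). The controls (5 females, 5 males) took the same behavioural tests without the exposure. No genetic change or drug is named for any group. How long after exposure the tissue was collected is not stated in the sources used.

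Calcium that enters an active neuron drives kinases that act on CREB and on the serum response factor, and these factors switch on a first wave of genes within minutes. Some of these genes encode transcription factors, such as *Fos*, *Junb* and *Egr1*. The others, called effectors, act directly: at the synapse (Arc and Nptx2), on lipid signals (Ptgs2), or as brakes on the kinases themselves (the Dusp phosphatases). In the hippocampus such transcripts are used as a trace of recent activity, and they return towards their starting level within hours.

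The deposited values were read as log2 intensities, so that 1 unit is a doubling. Each probe has its own efficiency, and levels are therefore compared between rats and not between genes. Groups were compared with limma, and a probe was called when its p, adjusted by Benjamini-Hochberg over the 11344 probes, was under 0.05. Differences carry their SE, and means of groups their SD. Every array had 9953 or 9954 probes above background, a count fixed by the normalisation between arrays and so no measure of their quality. Male extreme responder 4 had the lowest median correlation to the other arrays, at 0.963. Markers of neurons (*Snap25*, mean 12.8), of astrocytes (*Gfap*, 13.1) and of dentate granule cells (*C1ql2*, 9.30) were well above background, while *Rbfox3* (7.25) and *Prox1* (7.22), markers of neurons and granule cells, lay close to it. In whole tissue, fewer cells of a type and less RNA per cell cannot be told apart. The female and male rats carry different series of animal numbers, so sex and any cohort cannot be told apart. None of 6 sex-linked marker genes had an annotated probe, and the sex labels could not be checked by them.

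The letters just upstream of 3 of the genes are given because they hold motifs of CREB and of the serum response factor, the factors through which activity is known to reach this class of gene. RefSeq's promoter table (GRCr8) held 8 of the 9 genes, all but *Arc*. Each line is the 250 bases before the annotated start, 5′ to 3′ on the strand of the gene. The stretches lie at chr10:17184603-17184852 for *Dusp1*, chr19:40399123-40399372 for *Ier2* and chr1:262543524-262543773 for *Dusp5*, all 3 on the plus strand. Capitals mark the cyclic AMP response element TGACGTCA, its shorter core TGACG or CGTCA, and the CArG box, the site of the serum response factor.
Dusp1: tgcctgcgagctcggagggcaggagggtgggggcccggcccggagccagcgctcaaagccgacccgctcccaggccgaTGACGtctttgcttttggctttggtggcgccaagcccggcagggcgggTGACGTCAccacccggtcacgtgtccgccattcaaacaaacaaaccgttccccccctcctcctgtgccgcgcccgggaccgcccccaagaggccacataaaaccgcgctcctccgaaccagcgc
Ier2: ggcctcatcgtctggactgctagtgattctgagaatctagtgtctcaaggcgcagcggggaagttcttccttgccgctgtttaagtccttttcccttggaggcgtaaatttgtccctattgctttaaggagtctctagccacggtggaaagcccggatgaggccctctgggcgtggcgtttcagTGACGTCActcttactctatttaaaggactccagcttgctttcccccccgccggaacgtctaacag
Dusp5: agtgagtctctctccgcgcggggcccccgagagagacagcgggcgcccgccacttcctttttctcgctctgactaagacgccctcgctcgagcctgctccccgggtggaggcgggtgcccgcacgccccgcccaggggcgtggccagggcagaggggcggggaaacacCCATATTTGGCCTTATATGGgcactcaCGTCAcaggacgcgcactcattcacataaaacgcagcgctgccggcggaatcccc
The full element TGACGTCA starts 124 bases before the start of *Dusp1* and 66 bases before that of *Ier2*, and it occurs in 1.59% of the 33469 promoter windows of this length. The shorter core, searched on both strands, occurred 3 times in *Dusp1* and 2 times in *Ier2*, where the full element counts for 2 of the matches in each. It occurred once in *Dusp5* and once in *Nptx2*, and in 18.2% of all windows. *Dusp5* carried CArG boxes 82 and 72 bases before its start, a site found in 1.5% of windows. None of these 3 motifs was in the windows of *Npas4*, *Ptgs2*, *Dusp6* or *Gadd45b*. The windows of *Npas4* and *Gadd45b* lie within the annotated span of the gene, and that of *Dusp6* lies partly within it. Sequence outside the windows was not searched. A match is a run of letters, and binding was not measured.

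*Arc* was the only member called in the main fit, and it was higher in female extreme responders than in female controls. Its RNA is carried to active dendrites, and its protein helps to remove AMPA receptors from synapses. The 5 female extreme responders had *Arc* values of 9.72, 9.83, 9.86, 9.36 and 9.72. The 5 female minimal responders had 9.40, 8.98, 9.77, 8.82 and 9.37. The 5 female controls had 8.57, 8.43, 8.57, 8.42 and 8.46. All 10 exposed females lay above the highest female control, and the controls lay within a narrow band. Exposed and control females did not overlap for 0.212% of all probes. The group means were 9.70 ± 0.20 in extreme responders, 9.27 ± 0.37 in minimal responders and 8.49 ± 0.07 in controls (SD, n = 5 each).

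*Arc* was 1.21 ± 0.24 higher in female extreme responders than in female controls, a 2.31-fold level (limma, adjusted p = 0.0105, 95% interval of the log2 difference 0.71 to 1.71). It ranked 35th by p among the 11344 probes. It was the 1 member of 9 called in this comparison, in which 1.05% of all probes were called (69 higher and 50 lower). In female minimal responders *Arc* was 0.78 ± 0.24 above control, with all 5 rats above the highest control, and the difference did not pass (adjusted p = 0.258). Female minimal responders and controls did not overlap for 2.14% of all probes. Taken over extreme and minimal responders together, exposed females were 0.99 ± 0.21 above controls (adjusted p = 0.0663), and 0.00882% of probes were called. Extreme and minimal responders differed by 0.43 ± 0.24 (adjusted p = 0.354), with an interval of -0.07 to 0.93 and 2 extreme responders above the highest minimal responder.

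In males *Arc* varied more from rat to rat. The 5 male extreme responders had *Arc* values of 9.42, 9.27, 9.24, 10.40 and 8.20, which include both the highest and the lowest value of all 29 rats. The 4 male minimal responders had 9.37, 8.83, 9.65 and 9.83. The 5 male controls had 8.74, 8.72, 9.32, 9.18 and 8.76. The groups overlapped, and the SD of *Arc* was 0.78 in male extreme responders, 0.44 in male minimal responders and 0.28 in male controls. *Arc* was 0.36 ± 0.24 higher in male extreme responders than in male controls (adjusted p = 0.462, interval -0.14 to 0.86) and 0.47 ± 0.26 higher in male minimal responders (adjusted p = 0.998, interval -0.06 to 1.00). Without male extreme responder 4 the difference of extreme responders from controls was 0.09 (adjusted p = 0.913), and without male extreme responder 5 it was 0.64 (adjusted p = 0.111).

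The rise was not shown to differ between the sexes. The effect of extreme response on *Arc* was 0.85 ± 0.35 smaller in males than in females, a difference that did not pass (adjusted p = 0.479). In that test 0.0176% of probes were called. Over both sexes together, exposed rats were 0.70 ± 0.15 higher than controls in *Arc* (adjusted p = 0.0570). In this comparison 0.115% of probes and none of the 9 members were called with limma. An unadjusted p under 0.05 was found for 4 of the 9 members and for 8.91% of all probes. From the highest mean down, the order of *Arc* was female extreme, male minimal, male extreme, female minimal, male control and female control. Each neighbouring pair of means in this order differed by no more than the larger SD of the pair, except for male and female controls.

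**Figure D1:**
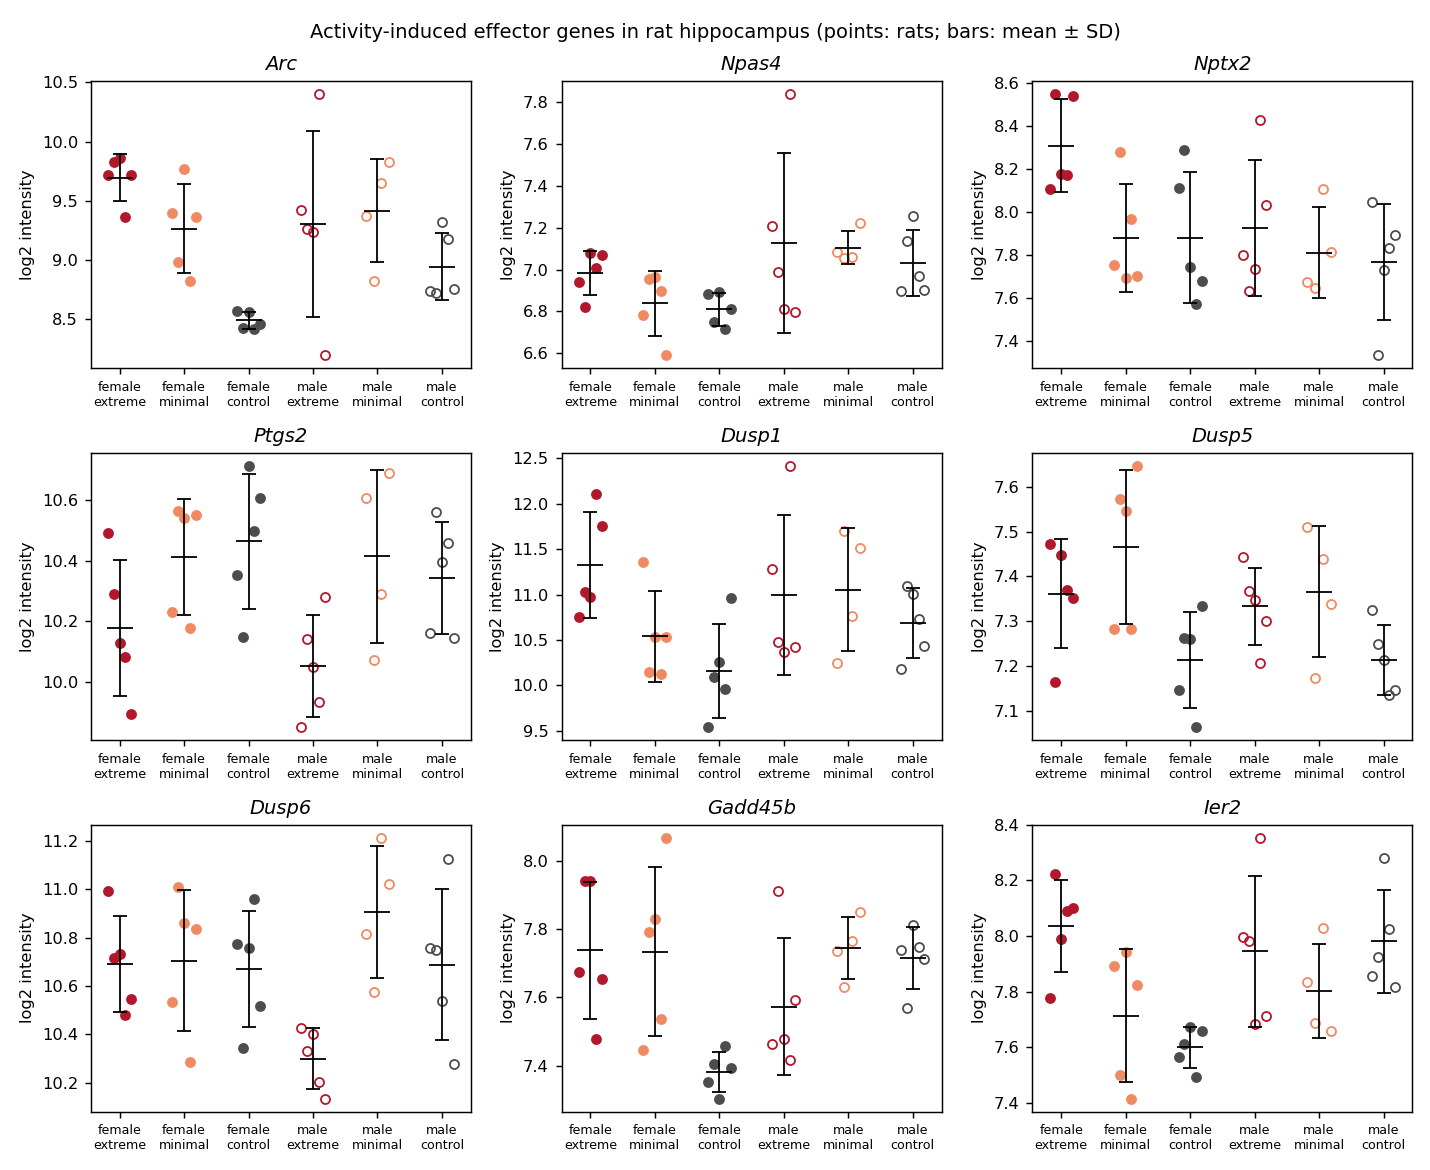
Each panel shows 1 gene and each point 1 rat, with log2 intensity on the vertical axis and the 6 groups on the horizontal axis in the order extreme, minimal and control for females (filled) and then males (open); bars are the mean ± SD. *Arc* in all 10 exposed females lies above the female controls, and male extreme responder 4 is the highest point of all for *Arc*, *Npas4*, *Dusp1* and *Ier2*.

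*Ier2*, *Gadd45b* and *Dusp1* followed *Arc* among the members by p in female extreme responders against controls, at ranks 166, 242 and 288, and none of these 3 passed. In the 1 window searched for each gene, *Ier2* and *Dusp1* hold the full element TGACGTCA and *Gadd45b* holds none of the motifs. *Ier2* encodes a nuclear protein induced early by growth factors and by activity. Its values were 7.78, 8.22, 7.99, 8.09 and 8.10 in female extreme responders, against 7.56, 7.61, 7.67, 7.49 and 7.66 in female controls. The groups did not overlap, and the difference was 0.44 ± 0.12 (adjusted p = 0.0673). The 5 female minimal responders had *Ier2* values of 7.89, 7.50, 7.94, 7.41 and 7.82, which spanned the controls, with a difference of 0.11 ± 0.12 (adjusted p = 0.758). Dusp1 is a nuclear phosphatase that switches off p38, JNK and ERK. Its values were 10.76, 11.03, 10.97, 12.11 and 11.75 in female extreme responders, against 9.54, 10.09, 10.26, 9.96 and 10.96 in female controls. Only the lowest extreme responder lay below the highest control, with 4 of 5 above it, and the difference was 1.16 ± 0.35, close in size to that of *Arc* but with a wider error (adjusted p = 0.0969, interval 0.45 to 1.88). All groups share 1 estimate of the spread in the fit, and leaving out male extreme responder 4 brought *Dusp1* (adjusted p = 0.0374) and *Ier2* (adjusted p = 0.0303) past the threshold in this comparison of females. *Dusp1* was 0.38 ± 0.35 higher in female minimal responders than in controls (adjusted p = 0.723). Against male controls, *Ier2* stood at -0.04 ± 0.12 in extreme and -0.18 ± 0.13 in minimal responders. *Dusp1* stood there at 0.31 ± 0.35 and 0.37 ± 0.37, and none of these passed. The sex difference in extreme response was -0.47 ± 0.17 for *Ier2*, male minus female (adjusted p = 0.407).

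*Gadd45b* was higher in both groups of exposed females than in female controls, without passing. Gadd45b is a stress-induced protein that in mouse has a part in activity-dependent DNA demethylation in the dentate gyrus. Its values were 7.67, 7.94, 7.94, 7.48 and 7.65 in female extreme responders, against 7.35, 7.41, 7.30, 7.46 and 7.39 in female controls. The lowest extreme responder was above the highest control, and the difference was 0.35 ± 0.10 (adjusted p = 0.0895). The female minimal responders had *Gadd45b* values of 7.45, 7.79, 7.83, 7.54 and 8.07, with 4 of 5 above the controls and a difference of 0.35 ± 0.10 (adjusted p = 0.228). The difference in *Gadd45b* between extreme and minimal responders had an interval of -0.21 to 0.22. In males, the extreme responders were at 7.46, 7.91, 7.48, 7.42 and 7.59, the minimal responders at 7.74, 7.63, 7.76 and 7.85, and the controls at 7.74, 7.57, 7.81, 7.75 and 7.71. Male extreme responders were thus on average 0.14 ± 0.10 below their controls in *Gadd45b* (adjusted p = 0.494). The effect of extreme response on *Gadd45b* was 0.50 ± 0.15 lower in males than in females, at rank 64 by p, and did not pass (adjusted p = 0.339).

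*Nptx2* encodes a secreted pentraxin that gathers AMPA receptors at synapses. Its values were 8.10, 8.55, 8.17, 8.17 and 8.54 in female extreme responders, 7.75, 8.28, 7.69, 7.97 and 7.70 in female minimal responders, and 8.11, 8.29, 7.74, 7.57 and 7.68 in female controls. Extreme responders were 0.43 ± 0.16 above controls (adjusted p = 0.198) and 0.43 ± 0.16 above minimal responders (adjusted p = 0.122), but 3 of the 5 lay within the range of the controls. With the array set described further on as a block, the *Nptx2* differences were 0.17 against controls and 0.18 against minimal responders (adjusted p = 0.567 and 0.499). *Npas4*, a transcription factor of neurons that responds to calcium, was above the background limit of 7.06 on 9 of 29 arrays. It ranged from 6.82 to 7.08 in female extreme responders, 6.59 to 6.97 in female minimal responders and 6.72 to 6.89 in female controls. The difference of 0.17 ± 0.13 between female extreme responders and controls was not distinguishable at this signal (adjusted p = 0.602).

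*Ptgs2*, the inducible cyclooxygenase, was the 1 member lower in female extreme responders than in female controls. Its values were 10.49, 10.29, 10.13, 10.08 and 9.90 in the extreme responders, against 10.35, 10.15, 10.71, 10.50 and 10.61 in the controls, a difference of -0.29 ± 0.13 (adjusted p = 0.313). In males *Ptgs2* stood at 9.85, 10.14, 10.05, 9.94 and 10.28 in extreme responders, against 10.16, 10.56, 10.39, 10.46 and 10.15 in controls, a difference of -0.29 ± 0.13 (adjusted p = 0.247). With the array set described further on as a block, the *Ptgs2* difference was -0.15 in females and -0.15 in males, and in set B alone -0.07 in females and -0.10 in males. The ranges overlapped in both sexes, neither difference passed, and the sexes differed by -0.01 ± 0.18, male minus female.

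Dusp5 and Dusp6 both remove phosphate from ERK, Dusp5 in the nucleus and Dusp6 in the cytoplasm. *Dusp6* was lowest in male extreme responders, at 10.43, 10.33, 10.40, 10.21 and 10.13. The male minimal responders had *Dusp6* values of 10.82, 10.58, 11.21 and 11.02, and the male controls 10.76, 10.75, 10.54, 11.12 and 10.28. All 5 extreme responders lay below the lowest minimal responder, and these groups did not overlap for 3.95% of all probes. The 5 extreme responders were in array set B, described further on, and 3 of the 4 minimal responders in set A. The difference of *Dusp6* between male extreme and minimal responders was -0.61 ± 0.16, a 0.657-fold level (adjusted p = 0.0946, rank 66), and none of the 9 members passed in a comparison in which 0.0882% of probes were called. Against male controls *Dusp6* was -0.39 ± 0.15 (adjusted p = 0.174). In females *Dusp6* differed by 0.02 ± 0.15 between extreme responders and controls (interval -0.28 to 0.32). The difference between the sexes in extreme against minimal response was -0.59 ± 0.21, male minus female, and did not pass (adjusted p = 0.443). *Dusp5* stayed between 7.06 and 7.65 in all 29 rats. It was 0.25 ± 0.08 higher in female minimal responders than in female controls (adjusted p = 0.267), 0.15 ± 0.08 higher in female extreme responders (adjusted p = 0.436) and 0.17 ± 0.05 higher in exposed rats of both sexes together (adjusted p = 0.253).

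**Figure D2:**
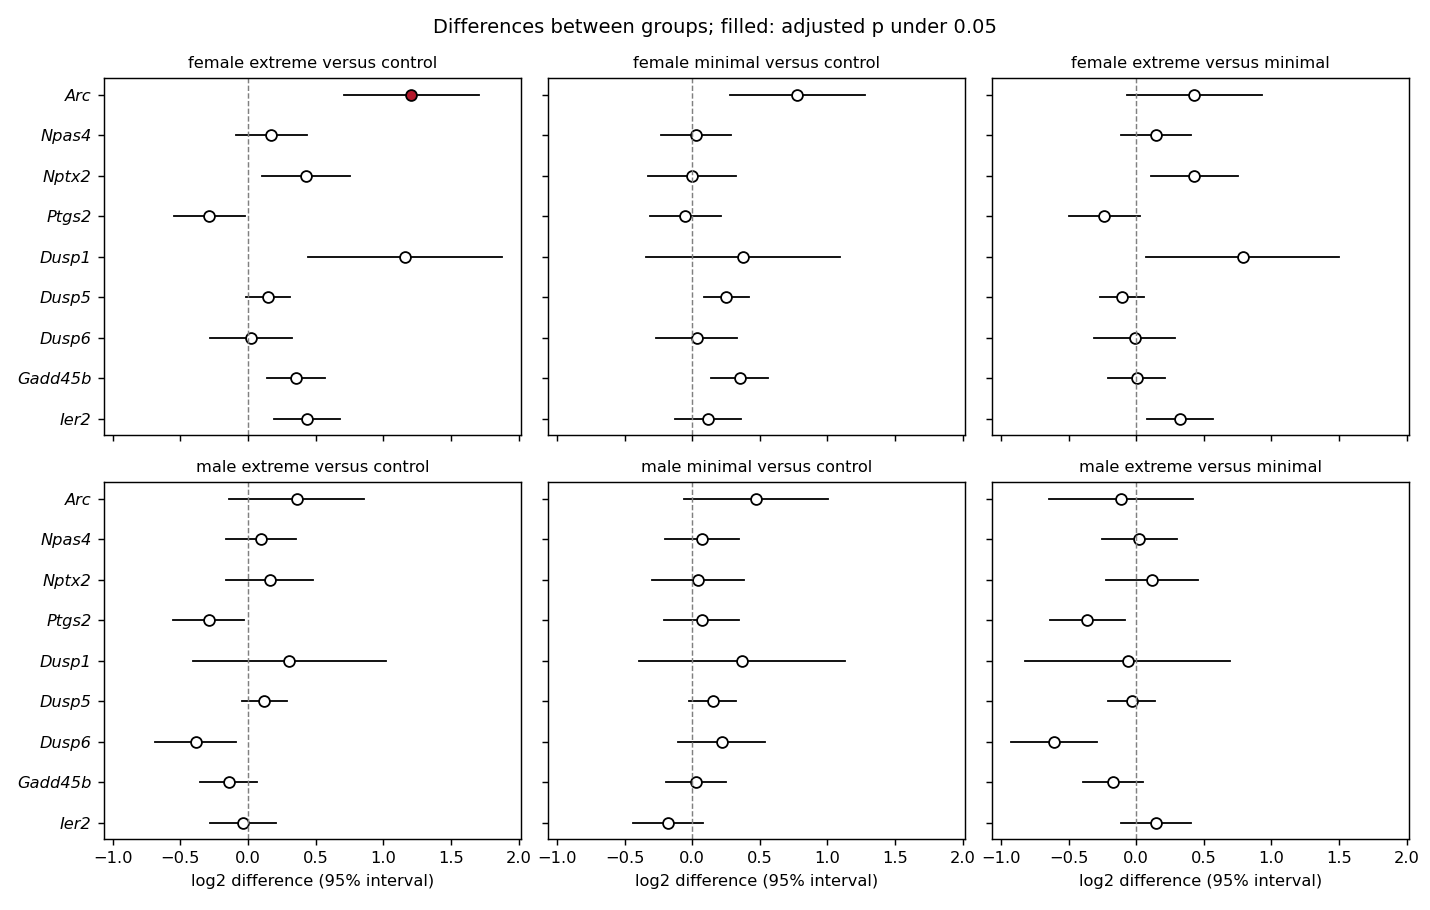
The 9 genes run down each panel, and the points give the log2 difference with its 95% interval for 6 comparisons, with females in the upper row and males in the lower row; a filled point has an adjusted p under 0.05. *Arc* in female extreme responders against controls, at 1.21, is the only filled point.

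Over the 9 members, 8 were higher and 1 lower in female extreme responders than in female controls, with a median log2 difference of 0.35, where the median of all probes was -0.01 and 46.7% of probes were higher. An unadjusted p under 0.05 was found for 6 of the 9 members and for 13.6% of all probes, and the groups did not overlap for 3 of the 9 members and for 4.02% of all probes. In female minimal responders against controls 7 were higher, with a median of 0.11, and neither a member nor any probe was called (0% of probes with limma, 1277 with an unadjusted p under 0.05, 3 of them members). These comparisons share their controls. In female extreme against minimal responders 6 members were higher and 3 lower, with a median of 0.14, and none was called, although 3.98% of all probes were.

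In males none of the members was called. Against male controls, 5 were higher and 4 lower in extreme responders (median 0.10) and 8 were higher and 1 lower in minimal responders (median 0.07). Of all probes, 0.652% were called for extreme responders and 0% for minimal responders (limma, 481 probes with an unadjusted p under 0.05, none of them members). For all exposed males against male controls the share was again 0% (969 probes with an unadjusted p under 0.05, none of them members). The effect of extreme response, male minus female, was below 0 for all 9 members, with a median of -0.41, and none passed. This sign is not settled for *Npas4*, *Dusp5* and *Ptgs2*: it held in 33 of 36, 35 of 37 and 28 of 37 other settings. *Npas4* stood at 0.01 without male extreme responder 5, and *Ptgs2* at 0.02 without male extreme responder 4. The other 6 members stayed below 0 in all settings run. For the sex difference in all exposed rats and in extreme against minimal responders limma called 0% of probes, where 1107 and 904 probes had an unadjusted p under 0.05.

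Male controls lay above female controls in 4 of the members, with none called. This comparison was added after the data were seen. *Arc*, *Npas4*, *Gadd45b* and *Ier2* were each higher in all 5 male controls than in any female control. The differences were 0.45 ± 0.24 for *Arc* (adjusted p = 0.399), 0.22 ± 0.13 for *Npas4* (adjusted p = 0.437), 0.33 ± 0.10 for *Gadd45b* (adjusted p = 0.145) and 0.38 ± 0.12 for *Ier2* (adjusted p = 0.145). None was called, as was the case for all probes (0%, with 1640 at an unadjusted p under 0.05 by limma), and 3.45% of probes had control groups that did not overlap. *Ier2* in male controls, at 7.98 ± 0.19, was near its level in female extreme responders, at 8.04 ± 0.17 (SD, n = 5 each).

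The arrays fall into a pair of sets, seen in the values and not in the labels, that bear on some of the members. Set A held 12 rats and set B 17, split by a gap of 1.19 in the probe for *Rpl37l1*. All 10 extreme responders were in set B, while set A held 3 of 5 female minimal responders, 3 of 5 female controls, 3 of 4 male minimal responders and 3 of 5 male controls. The sets were cut from these same values, so probes that move with *Rpl37l1* differ between them by construction. As no extreme responder was in set A, the set difference was estimated from minimal responders and controls alone. A block for the set carries that estimate over to the extreme responders. With the groups in the model, 19.9% of all probes differed between the sets. *Nptx2* was one of them, at 0.42 lower in set A than in set B (adjusted p = 0.00135). *Ptgs2* was 0.23 higher in set A (adjusted p = 0.0578) and *Dusp1* 0.59 higher (adjusted p = 0.0896), neither passing, and *Arc* was 0.20 higher (adjusted p = 0.495).

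With the set as a block, female extreme responders against controls gave 3 called members: *Arc* at 1.33 ± 0.26 (adjusted p = 0.00878), *Dusp1* at 1.51 ± 0.35 (adjusted p = 0.0241) and *Ier2* at 0.52 ± 0.13 (adjusted p = 0.0326). *Nptx2* then stood at 0.17 (adjusted p = 0.567) and *Ptgs2* at -0.15 (adjusted p = 0.637). Within set B alone, which keeps 2 female controls, *Arc* was 1.19 higher (adjusted p = 0.246), *Dusp1* 1.51, *Ier2* 0.45 and *Nptx2* 0.11 higher, and no member was called. With the block, *Arc* also passed in all exposed females, at 1.05 (adjusted p = 0.0382), and in both sexes together, at 0.76 (adjusted p = 0.0336). *Dusp6* in male extreme against minimal responders was -0.54 with the block (adjusted p = 0.234). Within the female minimal responders, *Arc* averaged 9.51 in the 3 rats of set A and 8.90 in the 2 of set B.

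**Figure D3:**
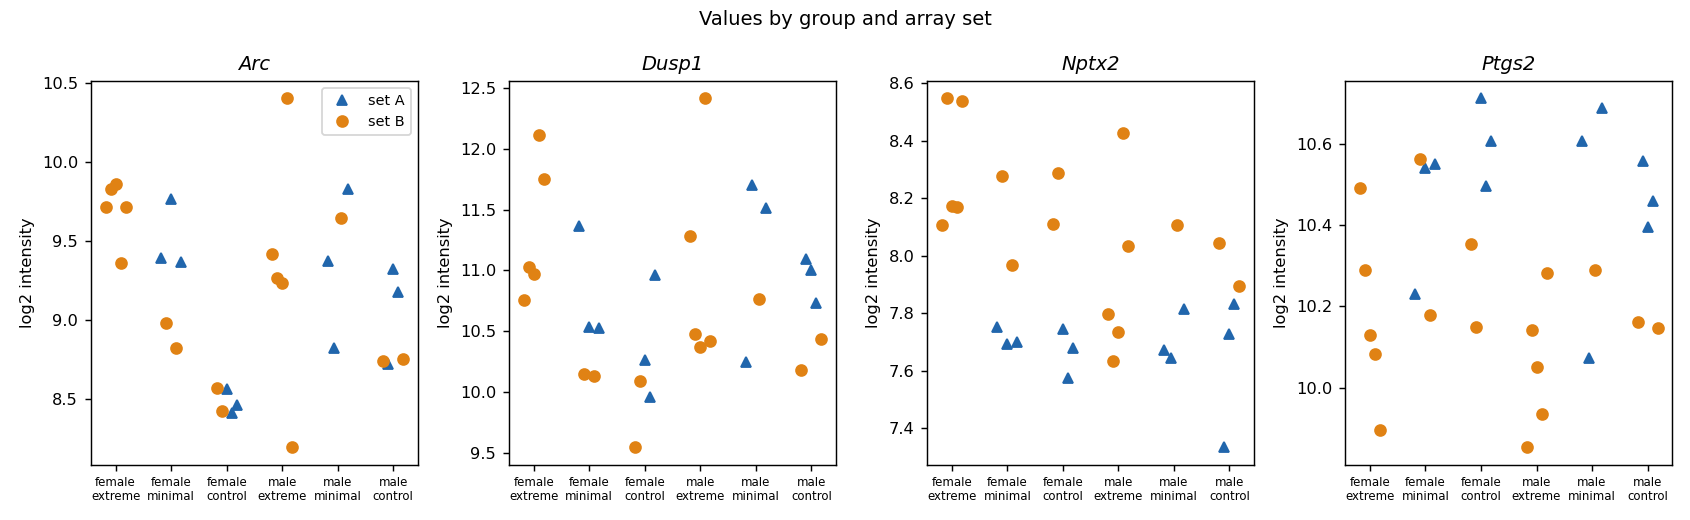
Log2 intensity of *Arc*, *Dusp1*, *Nptx2* and *Ptgs2* in each rat, by group on the horizontal axis and by array set (triangles set A, circles set B). *Nptx2* is lower in set A within the minimal and control groups, and the female controls of both sets lie between 8.42 and 8.57 in *Arc*.

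The members did not follow one another closely from rat to rat. After each group's mean was taken away, the correlation over the 29 rats was 0.70 for *Arc* with *Ier2* (Spearman 0.68) and 0.59 without the 2 rats farthest out. It was 0.65 for *Arc* with *Npas4* and 0.23 without the 2 farthest rats, and 0.38 for *Arc* with *Dusp1* and 0.02 without them. With *Nptx2* it fell from 0.16 to -0.008. For the other members the correlation with *Arc* rose without these 2 rats. It went from 0.14 to 0.41 for *Gadd45b*, 0.06 to 0.40 for *Ptgs2*, 0.32 to 0.46 for *Dusp6* and 0.05 to 0.22 for *Dusp5*. Over all 29 rats, *Dusp1* and *Ier2* had 0.53, and *Ptgs2* and *Dusp6* 0.52. *Npas4* and *Dusp1* had 0.58 (Spearman 0.44). The most negative pairs were *Dusp1* with *Gadd45b*, at -0.41 (Spearman -0.30), and *Nptx2* with *Ptgs2*, at -0.38 (Spearman -0.40). These 36 pairs share arrays, normalisation and array sets, and are given as a description. Male extreme responder 4 was the highest of the 29 rats in 4 members (*Arc* 10.40, *Npas4* 7.84, *Dusp1* 12.4, *Ier2* 8.35), while its *Gadd45b*, at 7.42, was the lowest of its group.

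**Figure D4:**
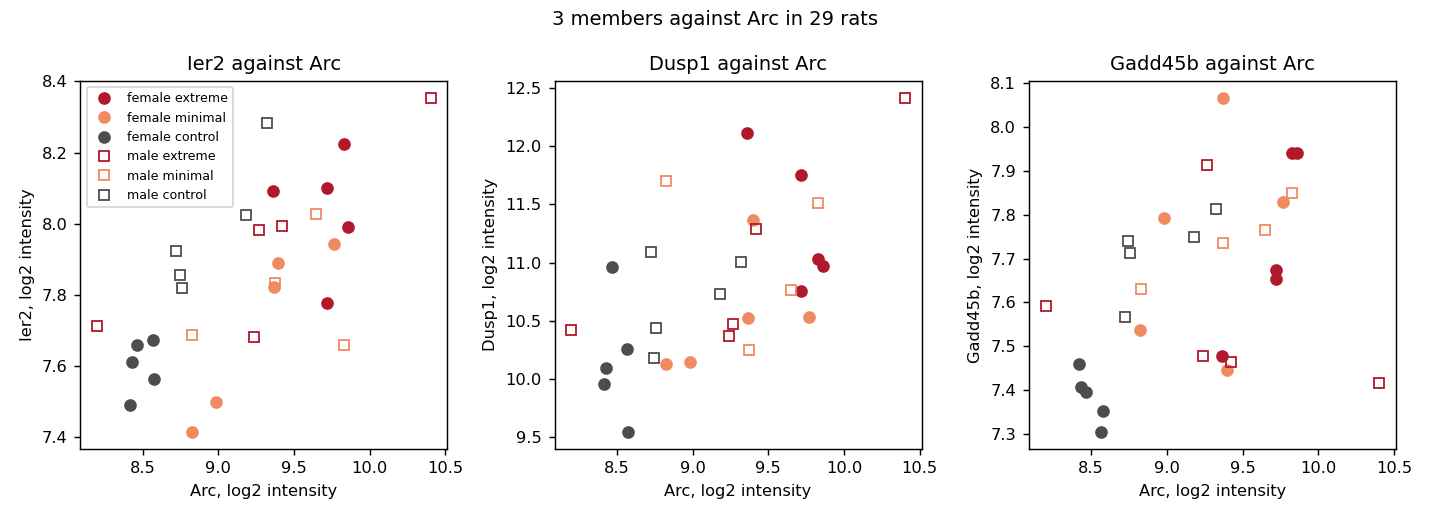
*Ier2*, *Dusp1* and *Gadd45b* (vertical axes) against *Arc* (horizontal axis), all in log2 intensity, 1 point for each of 29 rats with colour for response and filled circles for females. *Ier2* rises with *Arc* across groups, while male extreme responder 4, at the far right, is high in *Ier2* and *Dusp1* and low in *Gadd45b*.

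Of the 6 probes kept that were most like *Arc* over the 29 rats, 4 were immediate early transcription factors. *Junb* had a correlation of 0.91 with *Arc*, and 0.90 after the group means were taken away. *Egr4* had 0.82, *Egr1* 0.76 and *Egr2* 0.74, each a zinc finger transcription factor of the first wave, and the other 2 of the first 6 were *Mast2* at 0.75 and *Mtch1* at 0.74. After the group means were taken away, *Egr4* had 0.76, *Egr1* 0.71, *Egr2* 0.66, *Mast2* 0.61 and *Mtch1* 0.58. These matches were not computed again without the rats farthest out. *Junb* was also the closest to *Ier2*, at 0.79, and *Fos* the closest to *Dusp1*, at 0.80. The other members had their closest match in *Tenm3* (*Npas4*, 0.75), *Tmbim6* (*Nptx2*, 0.83), *Mgat4b* (*Ptgs2*, 0.78), *Stat5a* (*Dusp5*, 0.61), *Prkca* (*Dusp6*, 0.80) and *Arsl* (*Gadd45b*, 0.69).

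The rest of the activity-induced programme was described with gene lists. Of 22 immediate early transcription factors, 16 were kept, and in female extreme responders against controls 10 were higher and 6 lower (median 0.16). *Junb* alone was called, at 0.95 ± 0.21 (adjusted p = 0.0180). Of all probes, 1.05% were called in this comparison and 46.7% were higher. The lists were chosen with earlier results of these data known. Of 29 other activity-induced effectors, 17 were kept, 13 were higher and 6 were called, all higher. Among these were *Per1*, a clock gene that also responds to glucocorticoids, at 0.66 ± 0.11 (adjusted p = 0.00127), *Errfi1*, an inhibitor of the EGF receptor, at 0.57 ± 0.10 (adjusted p = 0.00529), *Nfil3*, a transcriptional repressor, at 0.67 ± 0.13 (adjusted p = 0.00685), and *Sgk1*, a kinase induced by glucocorticoids, at 1.07 ± 0.19 (adjusted p = 0.00429). *Sik1*, of the same list, was called at 0.71 ± 0.13 (adjusted p = 0.00590). The 4 genes before it were named for the smallest adjusted p in any comparison within a sex, extreme against minimal responders included. These 4 were also called against female minimal responders, at 0.47, 0.60, 0.68 and 0.88 in the same order. *Arc*, at 0.43, was not called against minimal responders, and neither were *Junb* and *Sik1*. There 3.98% of all probes were called. With the array set as a block *Junb* stood at 1.12 against controls, and *Per1*, *Errfi1*, *Nfil3* and *Sgk1* kept their calls in both comparisons. In female minimal responders against controls, and in every comparison within males, none of either list was called. Calls were rare there among all probes: limma called 0% of them in female minimal responders against controls. In male extreme responders against controls, the comparison within males with the most calls, it called 0.652%.

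Among the partners of the Dusp members, 4 genes were called in females. Of 28 genes of the MAP kinase cascade, 14 were kept, and 3 were higher and 11 lower in female extreme responders than in controls (median -0.05), with none called. Against female minimal responders the kinase *Map2k2*, which phosphorylates ERK, fell by 0.32 (adjusted p = 0.0203). Of 19 other MAP kinase phosphatases and feedback inhibitors, 11 were kept, of which 1 was called against controls and 3 against minimal responders, where 1.05% and 3.98% of all probes were. *Ptpn5*, a neuronal tyrosine phosphatase that acts on ERK, rose by 0.50 ± 0.10 in female extreme responders against controls (adjusted p = 0.00703) and by 0.35 against minimal responders (adjusted p = 0.0395). Against minimal responders *Dusp8*, a phosphatase of JNK and p38, rose by 0.40 (adjusted p = 0.0388) and *Spred1*, an inhibitor of the Ras pathway, fell by 0.61 (adjusted p = 0.0243). With the set as a block *Spred1* stood at -0.58 (adjusted p = 0.0532) and *Ptpn5* against minimal responders at 0.27 (adjusted p = 0.139), both without a call. None of these genes was called in males, where *Dusp6* was lowest and where no comparison called more than 0.652% of all probes.

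For the upstream activators, 17 of 29 were kept, 7 were higher and 10 lower in female extreme responders than in controls (median -0.02), and none was called. *Srf*, the serum response factor, fell by 0.27 against female minimal responders (adjusted p = 0.0350), and stood at -0.25 with the set block (adjusted p = 0.0747). Of the prostaglandin genes around *Ptgs2*, 9 of 18 were kept, with 5 higher and 4 lower in female extreme responders than in controls and none called. Of the DNA demethylation partners of *Gadd45b*, 8 of 13 were kept and 7 were higher. Of all probes, 46.7% were higher and 1.05% were called against controls. *Gadd45g*, its relative, rose by 0.37 ± 0.08 (adjusted p = 0.0186). Of pentraxins and AMPA receptor partners, 14 of 20 were kept, 7 were higher and 7 lower, and *Cnih2*, an auxiliary AMPA receptor subunit, rose by 1.23 ± 0.29 (adjusted p = 0.0305), and stood at 0.92 with the set block (adjusted p = 0.0909). In males no gene of any of these 8 lists was called, where no comparison called more than 0.652% of all probes.

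Markers of other cells moved beside these genes. In female extreme responders against controls all 7 oligodendrocyte markers kept were higher (median 0.37), none of them called, and their mean level ranged from 10.46 to 10.88 in extreme responders and 10.09 to 10.58 in controls. Among the markers, 2 were called there: the neuronal *Tubb3* rose by 0.68 (adjusted p = 0.0453) and the striatal *Adora2a* fell by 0.42 (adjusted p = 0.0367). With the set block neither was called, at 0.42 and -0.30 (adjusted p = 0.133 and 0.111). Of the 7 neuronal markers 3 were higher and 4 lower (median -0.03), and of the 5 striatal markers kept 2 were higher and 3 lower (median -0.09). Against female minimal responders *Cnp* and *Olig1* were called, at 0.52 and 0.55, and with the set block *Cnp* was not (0.43, adjusted p = 0.127). The endothelial markers *Cd93* and *Tie1* were also called there, at 0.80 and 0.40. In male extreme responders against controls the dentate granule markers *C1ql2* and *Pdyn* fell by 0.84 and 0.77 (adjusted p = 0.0454 and 0.0350). Without male extreme responder 4 they stood at -0.58 and -0.71 (adjusted p = 0.106 and 0.0966), and *C1ql2* also lost its call with the set block (-0.78, adjusted p = 0.0916). The mean of the 4 granule markers kept ranged from 8.38 to 8.89 in male extreme responders and 8.86 to 9.24 in male controls. In female extreme responders it ranged from 8.86 to 9.18, against 9.10 to 9.26 in female controls. The minimal responders ranged from 8.64 to 8.98 in females, all below the female controls, and from 8.63 to 9.11 in males. The part of cell makeup in the values of *Arc*, *Dusp6* and the other members was not tested.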

How the data were processed

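Total RNA of the dissected hippocampus was copied into biotin-labelled cRNA and measured on Illumina arrays, per the labels. The authors deposited a table of processed values for 29 of the 30 samples. Male minimal responder 5 had no values, so that group had 4 rats. The deposited values were read as log2 intensities, since they run from 6.31 to 15 with a median of 6.96 in each column. No source used here gives the log base, the software or the background correction. Sorted, the 29 columns agree within 0.00119, so they had been normalised between arrays. The 60 columns of a second table, whose names match no label, were not used here. The number of rats limits the precision.

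A probe was kept when it exceeded 7.06 (background mode 6.71 plus 3 times the background SD of 0.115) on at least 5 arrays, which kept 11344 of 22523 probes (50.4%). All 6 groups were fitted together by lmFit, contrasts.fit and eBayes of limma 3.58.1, run in R 4.3.3, with 23 residual and 5.08 prior degrees of freedom, two-sided, and Benjamini-Hochberg adjustment over the probes kept in each of 13 comparisons. Each rat is 1 replicate. Effects of exposure average extreme and minimal responders, and sex differences are male minus female. The fits were checked on simulated data. Figures were drawn with matplotlib 3.10.9 in Python 3.11.15.

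All 9 members are named, with the 6 probes most like *Arc*, the 1 most like each other member, and up to 4 called genes by adjusted p from each of 8 lists. Besides these, *Sik1* and the markers that were called are named. Members, lists, array sets and tests were chosen with earlier results of these data known, and the comparison of male with female controls was added after seeing the data. The alternatives tried were all probes, a stricter limit (7.40), each sex fitted alone, a block for the replicate number, the array set as a block, set B alone, cyclic loess, array weights, a trended robust prior, and leaving out each rat. Rats with the same replicate number did not deviate together: the median correlation was -0.02 over 70 pairs, with 21 over 0.1, so the numbers do not pair the rats.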

Additional observations from a re-analysis of the deposited data

Results flagged for a closer look

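In 54 sets of group values (9 genes in 6 groups), 2 held a rat farther from the rest of its group than Dixon's 95% limit allows, where chance flags about 1 set in 20. Female extreme responder 4 had an *Arc* value of 9.36, with the next rat of its group at 9.72 and the highest at 9.86, and it was still above all female controls. The same rat had the highest *Dusp1* of its group, at 12.11. Male minimal responder 4 had an *Npas4* value of 7.22, with the next at 7.08 and the lowest at 7.06, all close to the background limit.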

How the results depend on the processing

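Over 13 comparisons and 38 settings (29 that leave out a rat and 9 others), the number of called members was recomputed 483 times, and 463 of these stayed within 1.5 times the reported number. Where the reported number was 0, as in all comparisons but female extreme responders against controls, only 0 again counted. In that 1 comparison, 27 of 29 leave-outs and 5 of 9 other settings stayed. For female extreme responders against controls, with 1 called member (*Arc*) and 119 probes, each sex fitted alone gave 2 members (179 probes), the set block 3 (195), set B alone 0 (2) and array weights 4 (434). Leaving out 1 rat gave 1 to 3, with 2 without female extreme responder 1 and 3 without male extreme responder 4 (216 probes). For exposed females against controls, with 0 called, each sex alone, the set block and array weights each gave 1, and leaving out 1 rat gave 0 to 1, with 1 without male extreme responder 4 or 5. For exposed rats of both sexes, with 0 called, the stricter filter, the set block, cyclic loess and array weights each gave 1. Leaving out 1 rat there gave 0 to 1, with 1 without female minimal responder 2 or 4, male minimal responder 2, or male extreme responder 4 or 5. The other 10 comparisons had 0 called members under the settings run. *Arc* in female extreme responders was between 1.17 and 1.29 and called without any 1 rat, 1.21 (adjusted p = 0.0118) with a replicate block, and 1.19 and not called in set B alone (adjusted p = 0.246), where 2 controls remain. The replicate block changed no call among the members. Over all probes, female extreme against minimal responders gave 451 calls, 705 with array weights and 0 in set B alone, where 2 minimal responders remain. Male extreme responders against controls gave 74, 30 with a replicate block and 0 with each sex alone or in set B. Male extreme against minimal responders gave 10, 4 with the set block and 24 with array weights. Exposed rats of both sexes gave 13, 4 with no filter, 30 with the set block and 0 with a replicate block. Male against female controls gave 0, 104 with the set block and 99 with array weights. The cause of these shifts was not tested. *Npas4* is limited by its signal near background.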

Other observations

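The spread of *Arc* within groups was lowest in female controls (SD 0.07) and highest in male extreme responders (SD 0.78). *Npas4* (SD 0.43), *Dusp1* (0.88) and *Ier2* (0.27) also had their highest spread in male extreme responders, the group of rat 4. Male extreme responder 5, in the same group, had the lowest *Arc* (8.20) and the lowest *Dusp6* (10.13) of the 29 rats. Interneuron markers were higher in male extreme responders than in male controls for 7 of the 8 kept (median 0.38), with none called. Of all probes, 47.8% were higher there. The mean of the 8 markers had a median of 9.840 in male extreme responders, 9.657 in male minimal responders and 9.607 in male controls. In females it was 9.775 in extreme responders, 9.782 in minimal responders and 9.486 in controls. The choroid plexus marker *Ttr* ran from 7.01 to 15 over all rats.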
